A study of Danio rerio with 27 samples.

Results

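The genes described here encode the machinery of oxidative phosphorylation, read in sorted skin and gill cells of zebrafish that carry a mutation in spic, and of their siblings. They were taken as every row of the deposited table whose gene symbol begins with nduf, cox4 to cox8, uqcr, sdha, sdhb, sdhc, sdhd, atp5, mt-nd, mt-co, mt-atp or mt-cyb. The rule found 115 of 32520 genes, 102 in the nuclear genome and 13 in the mitochondrial genome, and it used no measured value. The cells were sorted as metaphocyte progenitors, that is, precursors of the myeloid-like metaphocytes of barrier tissues. They came from adult fish of a line with a spic:EGFP and an mpeg1:DsRedx reporter and were sorted as EGFP-positive and DsRedx-negative, so that a promoter of the mutated gene itself drove the marker of the sort. For mutant cells the name rests on this sort, as their marker levels, given below, differed from those of siblings. Each of the 27 libraries held 30 cells and was made by Smart-seq2, an oligo-dT method, with 23 cycles of PCR. The groups were mutant epidermis (n = 7), sibling epidermis (n = 7), mutant gill (n = 8) and sibling gill (n = 5). All 4 groups carried the reporters. The labels name neither the mutant allele nor the siblings' full genotype, and they leave unsaid if each library came from its own fish. P-values here therefore measure the spread between libraries, which may be technical.

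Oxidative phosphorylation passes electrons from nutrients along complexes I to IV of the inner mitochondrial membrane and uses the proton gradient they build to make ATP at complex V. Complex I (NADH dehydrogenase), complex III (cytochrome bc1), complex IV (cytochrome c oxidase) and complex V (ATP synthase) are each built from subunits of both genomes, while complex II (succinate dehydrogenase) has nuclear subunits only. Nuclear subunits are translated in the cytosol and imported, and mitochondrial subunits are translated inside the organelle, so a complex needs both sets of transcripts. In fish skin and gill the ionocytes, which pump salts, are known to be rich in mitochondria.

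The nuclear set held 37 subunits and 7 assembly factors of complex I, 5 subunits and 4 assembly factors of complex II, 8 subunits of complex III, 21 subunits of complex IV with the supercomplex factor cox7a2l, and 17 subunits and 2 inhibitors of complex V. The mitochondrial set held 7 subunits of complex I, 1 of complex III, 3 of complex IV and 2 of complex V. Levels are in TPM (transcripts scaled for gene length and then to a fixed sum), which keep no depth. Of the 115 genes, 105 reached 1 TPM in at least 5 libraries and entered the test, 92 nuclear and all 13 mitochondrial. The other 10 were ndufb4, sdhda and ndufs8b, listed at 0 TPM in every library, ndufs1 and ndufa4l2b, which stayed under 1 TPM, and ndufaf7, ndufa4, ndufaf2, cox7a1 and sdhaf1, which reached 1 TPM in 2 to 4 libraries and 28.3 TPM at most. The core complex I gene ndufs1 peaked at 0.859 TPM; it is a gene that every respiring cell uses, so it and the genes at 0 are given only as listed.

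The libraries were read against markers first. The targeted gene spic (ENSDARG00000012435) had a lowest, median and highest value of 7.37, 32.6 and 125 TPM in mutant epidermis, against 561, 621 and 760 TPM in sibling epidermis (two-sided exact permutation test, p = 0.000583). It had 2.92, 12.6 and 53.3 TPM in mutant gill, against 140 to 500 TPM in sibling gill (two-sided exact permutation test, p = 0.00155), and both p-values are the smallest that the tests can give. Summed over 12 metaphocyte and myeloid markers, all of them in the table, the level was 3191 to 12452 TPM in mutant epidermis, against 21216 to 27591 TPM in sibling epidermis, and 8275 to 18242 TPM in mutant gill, against 13951 to 25826 TPM in sibling gill. The 15 neuroendocrine and sensory markers summed to 645 to 8462 TPM in mutant epidermis, against 18.1 to 236 TPM in sibling epidermis, and to 2763 to 6673 TPM in mutant gill, against 35.8 to 861 TPM in sibling gill. The genotypes did not overlap in either sum in epidermis or in the neuroendocrine sum in gill, and overlapped in the myeloid sum in gill. By limma, 10 of 12 tested metaphocyte and myeloid markers were lower and 12 of 14 neuroendocrine and sensory markers higher in mutant epidermis. Of all tested genes, 8.69% were lower and 4.13% higher there. In mutant gill the counts were 8 of 12 and 10 of 14, against 3.87% lower and 2.34% higher of all tested genes. The mutant comparisons below cannot be told apart from this shift in markers, whose part was not tested. Keratinocyte markers, 12 in all with krtt1c19e at 0 in every library, summed to 15156 to 49283 TPM in mutant epidermis, against 16221 to 33706 TPM in sibling epidermis, and to 5438 to 16935 TPM in mutant gill, against 7887 to 14526 TPM in sibling gill. Of 10 tested, krt5, krt91 and ppl were higher and anxa1a and evpla lower in mutant epidermis, and krt4 was higher in mutant gill (limma); the part of these cells in the results below was not tested. In sums of 30 cells, fewer cells of a type and less RNA per cell cannot be told apart.

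Transcripts of the 2 genomes stood at very different levels. Mitochondrial members made up 7.32 to 12.2% of TPM in mutant epidermis (median 9.77%), against 6.02 to 10.0025% in sibling epidermis (median 9.21%). They made up 4.60 to 13.6% in mutant gill (median 6.47%), against 12.8, 8.33, 6.47, 5.53 and 4.84% in the 5 sibling gill libraries. All 102 nuclear members together made up 0.617 to 1.22% in mutant epidermis (median 0.891%), against 1.07 to 1.41% in sibling epidermis (median 1.31%). They made up 0.867 to 2.84% in mutant gill (median 1.07%), against 1.78, 1.30, 1.22, 1.16 and 1.37% in sibling gill. The mitochondrial share thus overlapped between genotypes in both tissues, whereas 5 of 7 mutant epidermal libraries had a smaller nuclear share than the lowest sibling library.

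Among mitochondrial members the order was nearly fixed. The gene mt-co2, which encodes the copper subunit of cytochrome c oxidase, was the highest in 27 of 27 libraries, with mt-co3 the second in 24 and mt-co1 the third in 24. Over all libraries mt-co2 averaged 30254 TPM, mt-co3 18976 TPM and mt-co1 15899 TPM, ahead of mt-cyb of complex III at 6139 TPM and mt-atp6 of complex V at 4230 TPM. The 7 mitochondrial genes of complex I had a median of their means of 1034 TPM, from 473 TPM to 1249 TPM. The 3 cytochrome c oxidase genes supplied 79.9 to 82.9% of the mitochondrial TPM in mutant epidermis, against 78.2 to 82.5% in sibling epidermis. They supplied 65.5 to 81.6% in mutant gill, against 71.3 to 78.3% in sibling gill. Subunits that overlap or lie opposite one another in the mitochondrial genome (mt-atp8 with mt-atp6, mt-nd4l with mt-nd4, mt-nd6 with mt-nd5) are uncertain, since the strand setting of the counting is not given.

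Nuclear subunits were lower per gene, and complex V stood above the rest. The median of the subunit means was 189 TPM for complex V, 86.2 TPM for complex IV, 68.3 TPM for complex III, 64.0 TPM for complex I and 56.6 TPM for complex II. The most abundant nuclear members were cox7c, a small subunit of cytochrome c oxidase, at a mean of 821 TPM, and atp5f1b, the catalytic beta subunit of ATP synthase, at 710 TPM. The next were cox4i1, the main isoform of subunit IV, at 610 TPM, and atp5mc3b, a gene for the c subunit of the rotor ring, at 525 TPM. Complex I was led by ndufb9 at 188 TPM and ndufa2 at 156 TPM, complex III by uqcrh at 178 TPM and uqcr10 at 133 TPM, and complex II by sdha at 92.2 TPM and sdhdb at 59.5 TPM.

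**Figure D1:**
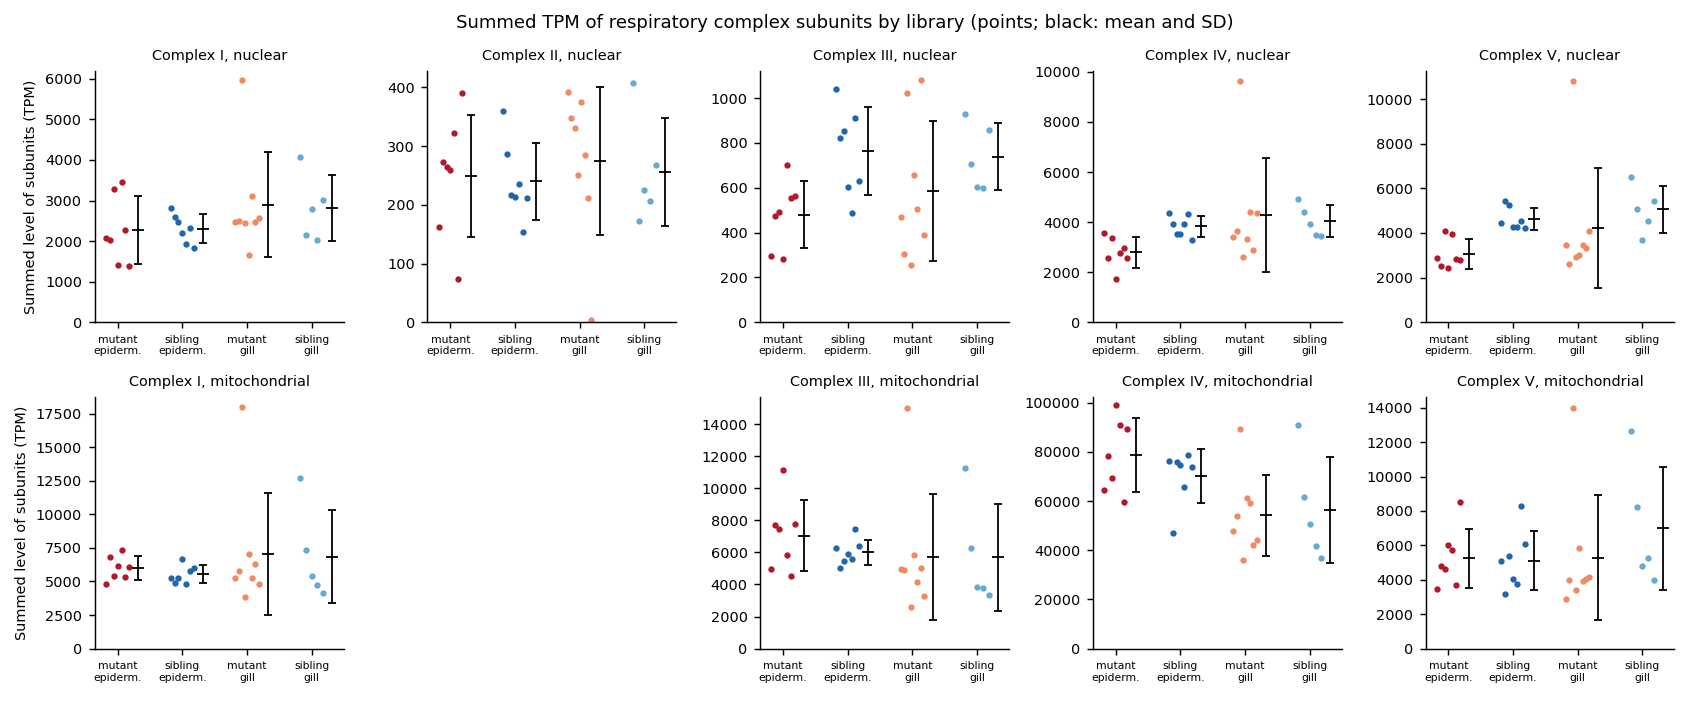
Summed TPM of the subunits of each complex (linear axes from 0), nuclear genes in the upper row and mitochondrial genes in the lower row, with 1 point per library and the mean and SD in black; complex II has no mitochondrial subunit. The 7 mutant epidermal libraries all lie below the 7 sibling libraries for nuclear complex V, and mutant gill 3 is the highest gill library for nuclear complexes I, IV and V and for mitochondrial complexes I, III and V.

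In epidermis, summed nuclear transcripts of complexes III, IV and V had lower means in mutants on the TPM scale, those of complexes I and II had means close to those of siblings, and mitochondrial transcripts of every complex had means somewhat above those of siblings. These sums are levels per library and were not tested. Nuclear complex V subunits summed to 3060 ± 670 TPM in mutant epidermis and 4636 ± 488 TPM in sibling epidermis (SD, n = 7 each), a ratio of 0.660. The 7 mutant libraries, from 2412 to 4079 TPM, did not overlap the 7 sibling libraries, from 4232 to 5418 TPM. Nuclear complex IV subunits summed to 2787 ± 607 TPM in mutants and 3834 ± 412 TPM in siblings, a ratio of 0.727, and 5 of 7 mutant libraries were under the lowest sibling library. Nuclear complex III subunits summed to 480 ± 150 TPM in mutants and 764 ± 196 TPM in siblings, a ratio of 0.628, with 3 of 7 mutant libraries under the lowest sibling library. Complex I and II differed by less than the spread between libraries. Nuclear complex I subunits summed to 2274 ± 827 TPM in mutants and 2309 ± 347 TPM in siblings, and complex II subunits to 249 ± 104 TPM in mutants and 240 ± 66.3 TPM in siblings.

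The mitochondrial sums in epidermis went the other way by less than their spread. Mitochondrial complex IV subunits summed to 78764 ± 14900 TPM in mutants and 70316 ± 11036 TPM in siblings (SD, n = 7 each). The gene mt-cyb of complex III averaged 7055 ± 2240 TPM in mutants and 6014 ± 784 TPM in siblings. Mitochondrial complex I subunits summed to 5998 ± 883 TPM in mutants and 5532 ± 666 TPM in siblings, and those of complex V to 5257 ± 1723 TPM in mutants and 5108 ± 1713 TPM in siblings. The mutant over sibling ratio was thus 1.03 to 1.17 for the 4 mitochondrial sums, and the groups overlapped in each.

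Set against each other by complex, the ratio of mitochondrial to nuclear transcripts had a higher mean in mutant epidermis for all 4 complexes built from both genomes, and the genotypes overlapped in each. For complex III the ratio in a library was 8.17 at lowest, 15.2 at the median and 39.6 at highest in mutants, against 6.01, 8.16 and 11.4 in siblings. Here 5 of 7 mutant libraries were above the highest sibling library. For complex IV it was 17.9, 30.7 and 57.1 in mutants, against 12.05, 18.2 and 22.6 in siblings, with 4 of 7 mutant libraries above all siblings. For complex V it was 1.13, 1.46 and 3.07 in mutants, against 0.590, 1.02 and 1.82 in siblings, with 3 of 7 above all siblings. For complex I it was 1.64, 2.36 and 4.42 in mutants, against 1.87, 2.48 and 3.30 in siblings, so that the mutant median was the lower. The complex I mean was 2.94 ± 1.12 in mutants and 2.46 ± 0.548 in siblings (SD, n = 7 each). Here too 3 of 7 mutant libraries were above all siblings, and 1 was below all siblings. The highest complex III and IV ratios both came from mutant epidermis 4, the library with the fewest genes at 1 TPM or more. The number of genes also differed between genotypes: 6469 to 8531 genes reached 1 TPM in mutant epidermis, against 7688 to 9097 in sibling epidermis. Its part in the ratios was not tested.

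**Figure D2:**
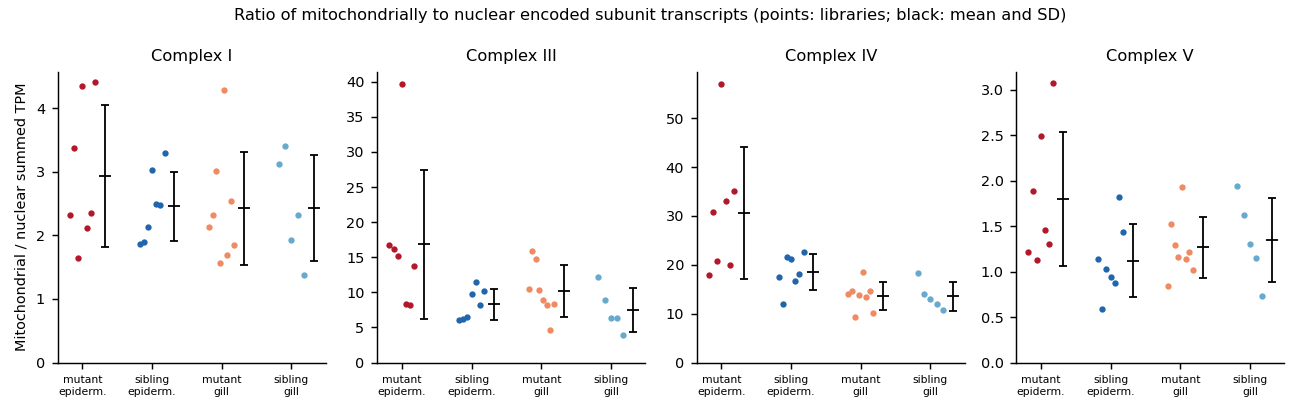
Ratio of summed mitochondrial to summed nuclear subunit TPM in each library (linear axes from 0), for the 4 complexes built from both genomes, with the mean and SD in black. In epidermis most mutant libraries sit above the siblings for complexes III and IV, while in gill mutant and sibling libraries overlap in every panel.

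In gill the groups overlapped in all of these sums, and 1 library of each genotype carried much of the spread. Nuclear complex V subunits summed to 4217 ± 2702 TPM in mutant gill (n = 8) and 5058 ± 1052 TPM in sibling gill (n = 5), and complex III subunits to 586 ± 313 TPM in mutants and 739 ± 148 TPM in siblings (SD). Below the lowest sibling library lay 6 of 8 mutant libraries for complex V and 5 of 8 for complex III. Nuclear complex IV summed to 4287 ± 2260 TPM in mutants and 4039 ± 638 TPM in siblings, complex I to 2898 ± 1303 TPM in mutants and 2810 ± 818 TPM in siblings, and complex II to 275 ± 126 TPM in mutants and 256 ± 92.2 TPM in siblings. The mitochondrial over nuclear ratio averaged 13.6 ± 2.86 in mutants and 13.6 ± 2.95 in siblings for complex IV, 10.19 ± 3.66 in mutants and 7.53 ± 3.15 in siblings for complex III, and 1.27 ± 0.334 in mutants and 1.35 ± 0.461 in siblings for complex V. For complex I it was 2.43 ± 0.888 in mutants and 2.44 ± 0.836 in siblings.

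Mutant gill 3 stood apart in both genomes and in the sum of ionocyte markers. It had 2.84% of its TPM in nuclear members, against 0.867 to 1.21% in the other 7 mutant gill libraries, and 13.6% in mitochondrial members. It was the highest of the 13 gill libraries for 41 of 92 tested nuclear members and for 11 of 13 mitochondrial members. The same count over all tested genes was not made, and this library also had the most genes at 1 TPM or more in its group, 10633. The 28 ionocyte markers, all in the table, summed to 14003 TPM there, against 408 to 3384 TPM in the other mutant gill libraries and 851, 410, 234, 204 and 472 TPM in sibling gill. Its leading ionocyte markers were atp1b1b at 3164 TPM, rhcgb at 1947 TPM, kcnj1a.1 at 1619 TPM and foxi3a at 1578 TPM, genes for a sodium pump subunit, an ammonia channel, a potassium channel and an ionocyte transcription factor. Other markers were not high there. Its trpv6 level was 10.5 TPM, against up to 627 TPM in mutant gill and a median of 96.0 TPM in sibling gill. It had 1.61 TPM of slc4a4b and 0.275 TPM of kcnj1a.4, against up to 45.5 and 91.1 TPM in mutant gill. For atp1a1a.1 it had 381 TPM, near the mutant gill median of 385 TPM. Of the 28 markers, foxi1, slc12a3 and clcnk were listed at 0 in every library of all groups. Without mutant gill 3, the mutant mean for nuclear complex V was 3274 ± 484 TPM, against 5058 ± 1052 TPM in siblings, and the mutant over sibling ratio became 0.647 in place of 0.834. The same step took the ratio for all nuclear members to 0.765 in place of 0.929. Sibling gill 1 had the highest sibling ionocyte sum and both shares highest among siblings, and without it the ratio for all nuclear members was 1.01.

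**Figure D3:**
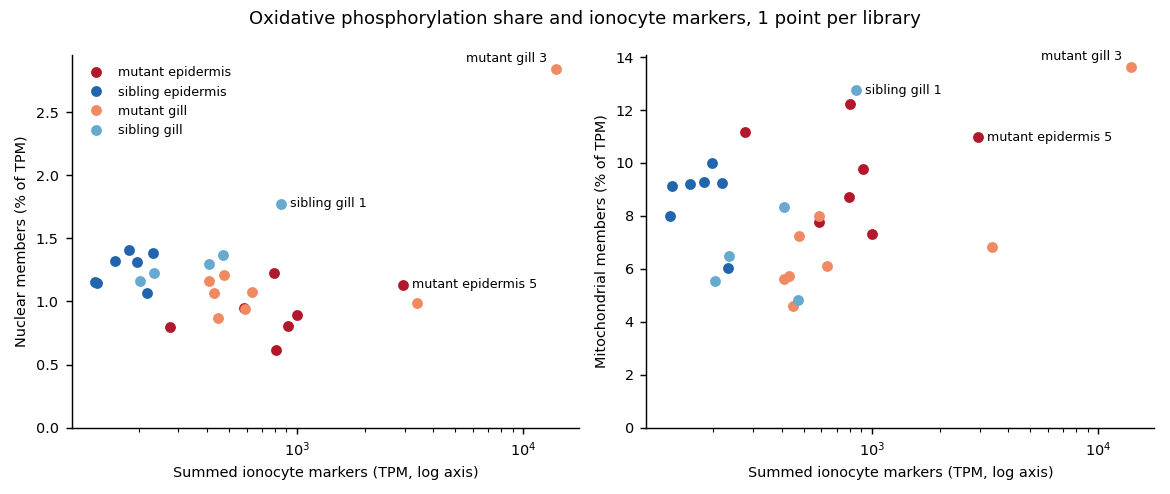
Share of TPM in nuclear members (left, linear axis) and mitochondrial members (right, linear axis) against the summed level of 28 ionocyte markers (log axis), with 1 point per library coloured by group. Mutant gill 3, at 14003 TPM of ionocyte markers, has the highest share in both panels, while mutant gill 2, at 3384 TPM, and mutant epidermis 5, at 2938 TPM, lie within the range of other libraries.

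Epidermal libraries also differed in ionocyte markers. Their sum was 275, 806 and 2938 TPM at lowest, median and highest in mutant epidermis, against 128, 181 and 231 TPM in sibling epidermis, mostly from atp1a1a.1, a sodium pump subunit that other cells also express. In mutant epidermis 5, the highest, atp1a1a.3 at 653 TPM, foxi3a at 543 TPM and atp1b1b at 524 TPM were added to it. The gene atp1a1a.1 was the only 1 of 14 tested ionocyte markers past the threshold in epidermis. In gill kcnj1a.1 and rhcgb were the 2 that passed, and all 3 genes were higher in mutants. Muscle markers, another possible source of mitochondrial transcripts, summed to at most 37.7 TPM in any library, and erythrocyte markers to at most 14.8 TPM. The part of ionocyte transcripts in the results on the epidermis and gill was not tested.

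Gene by gene, 5 of the 105 tested members were lower in mutant epidermis and none was higher, by limma on log2(TPM + 1) with Benjamini-Hochberg adjustment over all 13465 genes tested and a threshold of 0.05. That is 4.76% of the members lower, against 8.69% lower and 4.13% higher of all genes (12.8% called in either direction), a share of members below that of all genes. At an unadjusted p under 0.05 there were 18. The split depends on the scale: after median centring 12 members were called higher (11 of them mitochondrial) and 1 lower, and after quantile normalization none higher and 3 lower. All 5 on the deposited scale were nuclear: 2 of 39 tested in complex I, none of 7 in complex II, none of 8 in complex III, 1 of 19 in complex IV and 2 of 19 in complex V, assembly factors and inhibitors included.

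The direction below the call was shared by most nuclear members. On the deposited scale 81 of 92 had a log2 change below 0 in epidermis and their median was -0.83, against -0.27 for all tested genes, a difference of -0.56. The median of all genes was itself -0.59 with the stricter filter (5 TPM in 10 libraries) and -0.49 with a pseudocount of 0.1. In neither tissue were members and other genes matched for level, and the share of all genes below 0 was not counted. By complex the median log2 change was -0.95 for I, -0.59 for II, -1.02 for III, -0.71 for IV and -0.71 for V, and all 19 tested genes of complex V were below 0. Of 13 mitochondrial members 10 were above 0, with a median of 0.11 and a range of -0.22 to 0.50. The sign of these values depends on the scale: centring each library on its median log2 value moved the median of all genes to 0.91, that of nuclear members to 0.35 and that of mitochondrial members to 1.30, with 34 of 92 nuclear members below 0. Centring shifts every gene alike, and 71 of 92 nuclear members and none of 13 mitochondrial members lay below the median of all genes. At most 6663 of the 13465 tested genes reached 1 TPM in mutant epidermis 2 and 6469 in mutant epidermis 4. The median subtracted from these libraries therefore lay under 1 TPM. For complex I the median log2 change was negative on the deposited scale, while the means of its summed TPM were close. These cover unlike sets: the median weighs 39 tested genes alike, assembly factors included. The sum holds subunits only, and high genes weigh most in it.

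Nuclear members also varied more between mutant libraries. The SD of log2(TPM + 1) within a group had a median over the 92 genes of 1.85 in mutant epidermis, against 0.74 in sibling epidermis, and of 1.87 in mutant gill, against 0.76 in sibling gill. Over all 13465 tested genes the medians were 1.86 in mutant epidermis, against 1.35 in sibling epidermis, and 1.88 in mutant gill, against 1.45 in sibling gill. For mitochondrial members the medians were 0.41 in mutant epidermis, against 0.31 in sibling epidermis, and 0.73 in mutant gill, against 0.67 in sibling gill. Between 45 and 71 nuclear members (median 66) reached 10 TPM in a mutant epidermal library, against 76 to 81 (median 77) in a sibling one, with no overlap. In gill 58 to 81 (median 68.5) reached it in mutants, against 81, 77, 77, 85 and 85 in siblings. At 1 TPM or more the counts in epidermis overlapped, with 72 to 83 in mutants against 82 to 87 in siblings. The mutant over sibling ratio of these mean counts was 0.915, against 0.873 for all genes at 1 TPM. For gill it was 0.928, against 0.965 for all genes. All genes were not counted at 10 TPM, so the counts there are not shown to be particular to the members.

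The largest change in epidermis was in cox7a2l (ENSDARG00000054907), whose product in mouse joins complexes III and IV into supercomplexes. It had 1.01, 3.05 and 174 TPM at lowest, median and highest in mutant epidermis, against 96.0, 194 and 253 TPM in sibling epidermis. The 174 TPM was mutant epidermis 1, which overlapped the siblings, while the other 6 mutant libraries lay at or under 56.1 TPM, below every sibling. The log2 change was -4.26 ± 0.90 (SE; limma, adjusted p = 0.000955). In gill it had 3.87, 74.6 and 176 TPM in mutants, against 104, 27.7, 185, 102 and 33.1 TPM in siblings, and it did not pass there (log2 change -0.84, adjusted p = 0.691). The difference of these changes between tissues, 3.42 ± 1.31, did not pass either (adjusted p = 0.339).

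Of the 2 genes for the ATP synthase inhibitory factor, which limits ATP hydrolysis when the proton gradient fails, atp5if1b fell in mutant epidermis. It had 4.77, 25.7 and 167 TPM in mutants, against 125, 223 and 419 TPM in siblings, a log2 change of -2.75 ± 0.68 (limma, adjusted p = 0.00504). Its paralogue atp5if1a, which zebrafish need for haem synthesis in red cells, had 5.30, 65.7 and 585 TPM in mutants, against 135, 287 and 366 TPM in siblings, and did not pass (-1.69, adjusted p = 0.164). For both genes the highest mutant library overlapped the siblings. In gill, atp5if1b had 8.34, 140 and 454 TPM in mutants, against 321, 144, 226, 233 and 214 TPM in siblings (-0.90, adjusted p = 0.543). There atp5if1a had 1.62, 60.4 and 285 TPM in mutants, against 341, 170, 454, 228 and 187 TPM in siblings (-2.24, adjusted p = 0.110). Median centring ended the epidermal call of atp5if1b (adjusted p = 0.116).

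The rotor gene atp5mc3b was the called subunit of complex V. It had 23.7, 270 and 617 TPM in mutant epidermis, against 501, 737 and 911 TPM in sibling epidermis, a log2 change of -1.62 ± 0.48 (limma, adjusted p = 0.0213). Without mutant epidermis 4 it missed the threshold (adjusted p = 0.0534), as it did in 4 of 12 alternative settings (no filter, median centring, the epidermal libraries alone and detected genes as covariate; adjusted p up to 0.604). In gill it had 105, 287 and 820 TPM in mutants, against 1056, 941, 552, 898 and 775 TPM in siblings, a log2 change of -1.53 ± 0.52 with an adjusted p of 0.0727, and without mutant gill 3, its highest mutant library, the adjusted p was 0.0339. The other genes for subunit c took a larger share in mutants: atp5mc3b supplied 39.0% of the summed mean of atp5mc1, atp5mc3a and atp5mc3b in mutant epidermis, against 58.4% in sibling epidermis, and 44.2% in mutant gill, against 61.9% in sibling gill. These shares are values with no test, and reads may be split between such copies. The share in mutant epidermis includes mutant epidermis 5, where atp5mc1 reached 1241 TPM and was the highest nuclear member. The catalytic subunit gene atp5f1b had 240, 421 and 561 TPM in mutant epidermis, against 626, 723 and 999 TPM in sibling epidermis. Its groups did not overlap, yet it did not pass (log2 change -0.94 ± 0.40, adjusted p = 0.124). It passed in 1 of 12 alternative settings, the epidermal libraries alone (limma, adjusted p = 0.0212), and in 0 of 14 fits without 1 library. In gill it had 117, 601 and 2487 TPM in mutants, against 1050, 785, 547, 714 and 1094 TPM in siblings (-0.40, adjusted p = 0.663).

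Both called complex I subunits, ndufb2 and ndufb11, are accessory proteins of its membrane arm. The gene ndufb2 had 1.83, 12.1 and 78.5 TPM in mutant epidermis, against 23.2, 79.9 and 153 TPM in sibling epidermis (-2.23 ± 0.71; limma, adjusted p = 0.0327). The gene ndufb11 had 0, 5.73 and 15.4 TPM in mutants, against 8.88, 33.5 and 60.1 TPM in siblings (-2.97 ± 0.97, adjusted p = 0.0362). The groups overlapped for both. In gill neither passed: ndufb2 had 73.3, 131 and 278 TPM in mutants, against 91.3, 85.1, 611, 185 and 85.0 TPM in siblings (-0.24, adjusted p = 0.906). There ndufb11 had 0, 43.0 and 114 TPM in mutants, against 53.7, 28.3, 59.7, 44.8 and 31.4 TPM in siblings (-1.36, adjusted p = 0.512). Each epidermal call held in 7 of 12 alternative settings (highest adjusted p = 0.368 for ndufb2 and 0.194 for ndufb11). That of ndufb11 was lost without any 1 of mutant epidermis 1, 2 and 6 and sibling epidermis 2, 3, 4, 6 and 7 (adjusted p between 0.0562 and 0.0818). That of ndufb2 was lost without any 1 of mutant epidermis 1, 4 and 5 and sibling epidermis 3, 5, 6 and 7 (between 0.0559 and 0.0884).

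**Figure D4:**
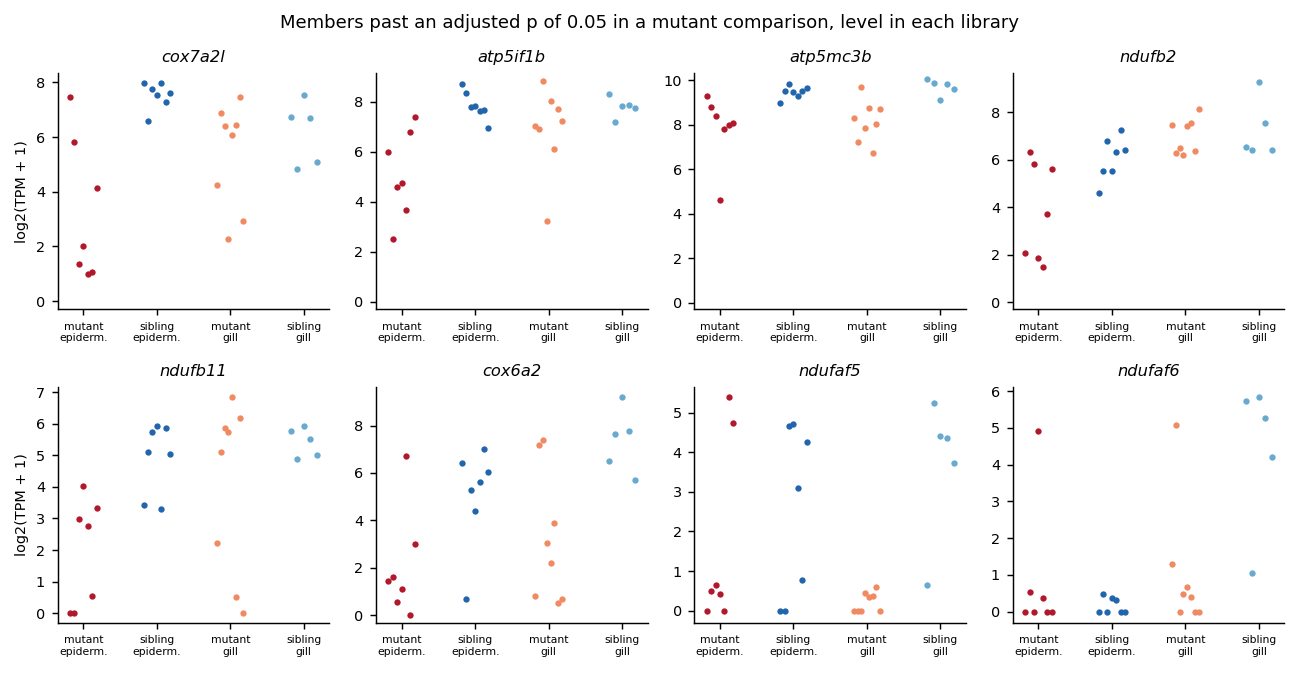
Level of the 8 members past an adjusted p of 0.05 in a mutant comparison, as log2(TPM + 1), with 1 point per library and the groups in the same order in each panel. For cox7a2l and atp5if1b most mutant epidermal points lie below all sibling points, and for ndufaf6 and ndufaf5 most sibling gill points lie above most mutant gill points.

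In gill 3 of 105 tested members were lower in mutants and none was higher, a share of 2.86% lower, against 3.87% lower and 2.34% higher of all tested genes (6.21% called in either direction). At an unadjusted p under 0.05 there were 15. After median centring 4 were called higher and none lower, and after quantile normalization 1 higher and 5 lower. On the deposited scale 71 of 92 nuclear members were below 0, with a median log2 change of -0.56, against -0.03 for all tested genes, and 8 of 13 mitochondrial members were below 0, with a median of -0.04. Median centring put the nuclear median at 0.29 and that of all genes at 0.83, and 71 of 92 nuclear members were below the median of all genes. By complex the medians on the deposited scale were -0.68 for I, -0.77 for II, -1.11 for III, -0.13 for IV and -0.69 for V. Without mutant gill 3 the nuclear median was -0.80 and 4 members were lower: cox6a2, ndufaf6, atp5mc3b and atp5fa1, which encodes the alpha subunit of ATP synthase.

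Of the 3 calls in gill, 2 were complex I assembly factors and 1 a subunit of cytochrome c oxidase. The gene cox6a2, the heart and muscle form of subunit VIa in mammals, had 0.441, 5.396 and 165 TPM in mutant gill, against 88.8, 196, 580, 216 and 51.5 TPM in sibling gill. The log2 change was -4.14 ± 1.20 (limma, adjusted p = 0.0307), and 2 mutant libraries overlapped the siblings. In epidermis it had 0, 1.76 and 104 TPM in mutants, against 0.618, 48.8 and 127 TPM in siblings (-3.00, adjusted p = 0.0743). The 104 TPM was mutant epidermis 5, without which the adjusted p was 0.0178. Without sibling epidermis 2 it was 0.0208.

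The assembly factor ndufaf6 had 0, 0.353 and 33.0 TPM in mutant gill, against 52.3, 1.08, 56.1, 37.9 and 17.5 TPM in sibling gill (-3.43 ± 0.89; limma, adjusted p = 0.0145). The factor ndufaf5, which modifies the complex I subunit ndufs7 in human cells, had 0, 0.133 and 0.518 TPM in mutant gill, against 0.560, 36.7, 20.4, 19.4 and 12.2 TPM in sibling gill (-3.46 ± 1.02, adjusted p = 0.0362). All 8 mutant gill libraries were below the lowest sibling for ndufaf5, and 2 of 8 lay above the lowest sibling for ndufaf6. In epidermis ndufaf5 had 0, 0.402 and 41.0 TPM in mutants, against 0, 7.50 and 25.3 TPM in siblings (-0.83, adjusted p = 0.658). There ndufaf6 had 0, 0 and 29.2 TPM in mutants, against 0, 0 and 0.398 TPM in siblings (0.67, adjusted p = 0.686). Leaving out 1 library ended the call of cox6a2 for mutant gill 1, 7 or 8 and sibling gill 2, 3 or 4 (adjusted p between 0.0531 and 0.107). It ended that of ndufaf5 for mutant gill 2 or 3 and sibling gill 2, 3, 4 or 5 (between 0.0507 and 0.101) and that of ndufaf6 for sibling gill 3 (0.0524). Without sibling gill 3 none of the 105 members passed in gill. Over the alternative settings the call held in 7 of 12 for cox6a2, 8 of 12 for ndufaf5 and 8 of 11 for ndufaf6, and median centring ended all 3 (adjusted p = 0.0746, 0.108 and 0.0780).

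No member passed the test for a difference between tissues in its mutant change. Of 105 tested, none passed the interaction test in limma (0.0594% of all genes did, 0.0371% higher and 0.0223% lower), 8 had an unadjusted p under 0.05 and the lowest adjusted p was 0.186. The 5 epidermal and the 3 gill calls are therefore not shown to belong to 1 tissue.

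No mitochondrial gene was called between genotypes on the deposited scale. For mt-co2 the values were 28050, 34823 and 43887 TPM in mutant epidermis, against 20320, 32920 and 36121 TPM in sibling epidermis (log2 change 0.21; limma, adjusted p = 0.521). For mt-co1 they were 15675, 20966 and 30300 TPM in mutants, against 11890, 19194 and 21804 TPM in siblings (0.18, adjusted p = 0.565), and for mt-co3 15928, 21420 and 28570 TPM in mutants, against 14863, 20884 and 23679 TPM in siblings (0.07, adjusted p = 0.869). The genotypes overlapped for all 3. For mt-cyb they were 4522, 7466 and 11145 TPM in mutants, against 5046, 5909 and 7441 TPM in siblings (0.18, adjusted p = 0.744). For mt-atp6 they were 2673, 3598 and 6404 TPM in mutants, against 2521, 3937 and 6175 TPM in siblings, and for mt-atp8 792, 1175 and 2122 TPM in mutants, against 677, 1155 and 2097 TPM in siblings. Both had a log2 change of less than 0.1. The complex I genes mt-nd1, mt-nd2, mt-nd3, mt-nd4, mt-nd4l, mt-nd5 and mt-nd6 ran from -0.22 in mt-nd1 to 0.50 in mt-nd3, with a lowest adjusted p of 0.444.

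In gill the mitochondrial genes were likewise uncalled. There mt-co2 had 16274, 24526 and 44655 TPM in mutants, against 44027, 29491, 24813, 20908 and 16821 TPM in siblings (-0.04; limma, adjusted p = 0.934). The range over the 13 genes was -0.56 in mt-atp8 to 0.33 in mt-nd6, and the highest mutant and the highest sibling value of mt-co2 belonged to mutant gill 3 and sibling gill 1. After median centring 11 of the 13 were called higher in mutant epidermis and none in mutant gill, so that the epidermal result for this genome rests on the scale. The median subtracted lay under 1 TPM in mutant epidermis 2 and 4, and quantile normalization called none of the 13 in either tissue.

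The succinate dehydrogenase genes of complex II, which also belongs to the citrate cycle, did not pass in either tissue. The flavoprotein gene sdha had 1.71, 65.8 and 157 TPM in mutant epidermis, against 59.4, 108 and 140 TPM in sibling epidermis (-1.30; limma, adjusted p = 0.324). The iron-sulfur gene sdhb had 2.02, 39.1 and 89.6 TPM in mutants, against 37.6, 45.8 and 104 TPM in siblings, and the anchor gene sdhc 1.07, 54.8 and 143 TPM in mutants, against 15.7, 34.0 and 71.4 TPM in siblings. The second anchor gene sdhdb had 0.743, 94.7 and 164 TPM in mutants, against 14.1, 32.1 and 86.7 TPM in siblings. Each of the 4 thus had its lowest value in a mutant library and, apart from sdhb, its highest there too. In gill, mutant and sibling medians were 119 and 65.5 TPM for sdha, 37.0 and 46.2 TPM for sdhb, 46.8 and 49.8 TPM for sdhc and 21.5 and 41.7 TPM for sdhdb, and mutant gill 8 held 3.34 TPM over all 5 listed subunits, the lowest sum of any library. Of the assembly factors sdhaf2, sdhaf3 and sdhaf4 none passed in either tissue.

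The leading subunits of complexes I and III did not pass between genotypes. In complex I, ndufb9 had 66.6, 118 and 539 TPM in mutant epidermis, against 71.9, 197 and 251 TPM in sibling epidermis, and 177, 260 and 331 TPM in mutant gill, against 101, 71.3, 165, 99.9 and 88.1 TPM in sibling gill. All 8 mutant gill libraries were above the 5 sibling libraries for this gene, and it did not pass (1.34; limma, adjusted p = 0.101). Its neighbour in level, ndufa2, had 3.74, 129 and 291 TPM in mutant epidermis, against 45.7, 113 and 293 TPM in sibling epidermis (-0.92, adjusted p = 0.569). In complex III the hinge protein gene uqcrh had 38.1, 166 and 292 TPM in mutant epidermis, against 109, 270 and 447 TPM in sibling epidermis (-0.93, adjusted p = 0.478), and uqcr10 had 33.0, 138 and 160 TPM in mutants, against 61.6, 131 and 263 TPM in siblings (-0.46, adjusted p = 0.759). In gill both had lower medians in mutants, 150 TPM for uqcrh and 63.8 TPM for uqcr10, against 182 and 122 TPM in siblings, and neither passed (adjusted p = 0.447 and 0.333).

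Cytochrome c oxidase has many paired isoform genes in zebrafish. Subunit IV came almost wholly from cox4i1 in skin, 99.3% of the family mean in mutant epidermis, against 99.5% in sibling epidermis, and 90.7% in mutant gill, against 94.7% in sibling gill. The gene had 19.95, 334 and 798 TPM in mutant epidermis, against 591, 710 and 761 TPM in sibling epidermis (-1.48 ± 0.51; limma, adjusted p = 0.0504), just outside the threshold. Leaving out mutant epidermis 1, 5 or 7 brought it inside (adjusted p 0.0179, 0.0498 and 0.0198). So did 4 of 12 alternative settings: a pseudocount of 0.1, the stricter filter, the replicate block and robust eBayes. Over the 12 settings the adjusted p ran from 0.0341 to 0.729 (limma). The isoform cox4i2, linked to low oxygen in mammals, had 0.442, 55.2 and 138 TPM in mutant gill, against 6.83, 0, 20.9, 16.1 and 46.6 TPM in sibling gill (0.74, adjusted p = 0.789), and medians of 0.346 TPM in mutant epidermis and 0.563 TPM in sibling epidermis. The third copy cox4i1l had a median under 1 TPM in all 4 groups.

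The copies of subunit VIa differed in share. The gene cox6a2 made up 34.7% of the pair in mutant epidermis, against 49.5% in sibling epidermis, and 40.9% in mutant gill, against 81.4% in sibling gill. Without mutant epidermis 5 the share in mutant epidermis was 5.39%. Its partner cox6a1 had 0.989, 19.2 and 95.9 TPM in mutant epidermis, against 37.5, 42.9 and 106 TPM in sibling epidermis (-2.02; limma, adjusted p = 0.0991, and 0.0345 without mutant epidermis 3). For subunit VIIa, cox7a2a had 33.2, 107 and 169 TPM in mutant epidermis, against 178, 193 and 238 TPM in sibling epidermis, with no overlap and no call (-1.19, adjusted p = 0.268). The most abundant nuclear member, cox7c, had 445, 841 and 873 TPM in mutant epidermis, against 658, 796 and 1027 TPM in sibling epidermis (-0.25, adjusted p = 0.637). The pairs cox5aa and cox5ab, cox6b1 and cox6b2, and cox8a with cox8b held no call between genotypes, with cox5aa at 71.3% of its pair in mutant epidermis, against 76.0% in sibling epidermis, and cox6b1 at 58.0% in mutant epidermis, against 51.4% in sibling epidermis.

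The ndufa4 family was once assigned to complex I and is now assigned to complex IV. The gene ndufa4l2a, a relative of a low-oxygen gene of mammals, had 0.812, 3.17 and 1346 TPM in mutant gill and was listed at 0 in all 5 sibling gill libraries. All 8 mutant libraries were thus above the siblings, and it did not pass (log2 change 2.92; limma, adjusted p = 0.0583). Its highest value was in mutant gill 6: the gene made up 61.6% of the family mean in mutant gill with that library and 2.45% without it. It passed in 6 of 11 alternative settings (adjusted p from 0.00393 to 0.369 over the 11). Of 13 fits without 1 library it passed in 3, without mutant gill 6 (log2 change 1.85, adjusted p = 0.0171), 7 (0.0399) or 8 (0.0381). In epidermis its median was 0 TPM in both genotypes, and ndufa4l made up 99.1% of the family in mutants, against 96.2% in siblings.

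Between tissues, summed mitochondrial complex IV transcripts had lower means in gill than in epidermis in both genotypes, while nuclear complex IV sums had not. These sums were not tested, and the tissues overlapped in each. In siblings the mitochondrial sum was 36905 to 90917 TPM in gill, against 47073 to 78545 TPM in epidermis. The ratio of group means, gill over epidermis, was 0.688 in mutants and 0.801 in siblings for mitochondrial complex IV, and 1.54 in mutants and 1.05 in siblings for nuclear complex IV. Without mutant gill 3 the nuclear complex IV mean of mutant gill was 3519 TPM in place of 4287 TPM, against 2787 TPM in mutant epidermis. The gene mt-co1 carried the call in mutants: 8990, 11531 and 17104 TPM in mutant gill, against 15675, 20966 and 30300 TPM in mutant epidermis, a log2 change of -0.81 ± 0.16 (limma, adjusted p = 0.00243). In siblings it had 21571, 11339, 9664, 8773 and 8991 TPM in gill, against 11890, 19194 and 21804 TPM in epidermis (-0.67 ± 0.18, adjusted p = 0.0738). Without sibling gill 1, the highest gill library, or without sibling epidermis 2, the sibling change of mt-co1 passed, giving 2 calls in place of 1.

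In mutants 2 members were higher in gill and 1 was lower, of 105 tested (3.40% of all genes were higher and 0.824% lower, 4.23% in all), with 23 at an unadjusted p under 0.05. The complex I gene ndufb2 was higher in mutant gill than in mutant epidermis, by a log2 change of 3.16 ± 0.69 (limma, adjusted p = 0.00545), on the values given above. The oxidase gene cox8b, a heart and muscle form of subunit VIII in mouse, had 0.711, 42.1 and 129 TPM in mutant gill, against 0, 0 and 1.11 TPM in mutant epidermis (4.10 ± 0.98, adjusted p = 0.0117). In siblings 1 member passed, with 7 at an unadjusted p under 0.05, against 0.958% of all genes (0.631% higher): ndufaf6 was higher in sibling gill than in sibling epidermis by 4.26 ± 0.92 (adjusted p = 0.0121). For cox8b, sibling gill held 11.4, 23.2, 0, 57.1 and 9.97 TPM, against 0 to 14.7 TPM in sibling epidermis, and it was not called. After median centring none was higher and 3 were lower in mutant gill, mt-co1, mt-co2 and mt-co3. It ended the calls of ndufb2, cox8b and ndufaf6 (adjusted p = 0.0765, 0.0535 and 0.0546), and quantile normalization that of mt-co1 (0.495). Without mutant gill 3, mt-co2 and mt-co3 were lower in mutant gill as well, giving 5 calls. Without mutant gill 4 there were also 5, with cox4i2 and atp5if1b higher.

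Genes around the respiratory chain were read from lists that share no gene with it; over all tested genes 8.69% were lower and 4.13% higher in mutant epidermis, with a median log2 change of -0.27, and 3.87% were lower and 2.34% higher in mutant gill, with a median of -0.03. Of 7 tested carriers and channels, slc25a5, which exchanges ATP for ADP across the inner membrane, fell in mutant epidermis, with 639, 1621 and 2286 TPM in mutants, against 3356, 3640 and 4183 TPM in siblings (-1.25 ± 0.23; limma, adjusted p = 0.000169). No mutant library reached a sibling one. The outer membrane channel gene vdac2 also fell (-1.96 ± 0.64, adjusted p = 0.0369), whereas vdac3 rose, with 0.976, 94.0 and 223 TPM in mutants, against 0.147, 0.542 and 2.56 TPM in siblings (3.87 ± 1.13, adjusted p = 0.0191). Median centring took slc25a5 to -0.07 (adjusted p = 0.914) and ended the call of vdac2 (0.457), which also failed in 8 of 14 fits without 1 library; that of vdac3 was lost without mutant epidermis 6 (0.0551). The median log2 change of the list was -1.06 in epidermis and -0.48 in gill, where none passed.

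Assembly factors outside the symbol rule held 31 tested genes, of which 1 was lower in mutant epidermis (3.23%) and 4 in mutant gill (12.9%). The gene cmc1, which stabilises newly made cytochrome c oxidase subunit 1 in yeast and human cells, was lower in both: 0, 0 and 0.191 TPM in mutant epidermis, against 7.58, 15.2 and 35.0 TPM in sibling epidermis (-4.16 ± 0.60; limma, adjusted p = 5.21e-06), and at most 0.860 TPM in mutant gill, against 17.9 to 35.0 TPM in sibling gill (-4.26 ± 0.64, adjusted p = 2.56e-05). In both tissues all mutant libraries were below all siblings. In gill atpaf2, an assembly factor of the ATP synthase head, cmc2 and lyrm7, which serves complex III, also fell (log2 changes of -2.97, -2.74 and -2.30, adjusted p = 0.0145, 0.0169 and 0.0242). The calls of cmc1 held in every setting tried, whereas median centring ended those of atpaf2, cmc2 and lyrm7. That of atpaf2 was also lost without sibling gill 1 or 3 and that of cmc2 without sibling gill 3 or 4 (highest adjusted p = 0.0582 and 0.0576). No mutant library reached 1 TPM of cmc1 or lyrm7, so both genes entered the test through sibling libraries alone. In fits without 1 gill library, lyrm7 passed in the 9 that tested it and missed the filter in the others. The list's median was -0.78 in epidermis and -0.99 in gill.

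Of 92 tested genes listed for mitochondrial gene expression, 6 were lower in mutant epidermis (6.52%, under the share of all genes) and none higher. All 6 entered the list by a symbol starting with mrpl or mrps, with no check of function: mrpl39, mrps16, mrps6, mrpl51, mrps36 and mrpl54. Their median log2 change was -1.37 for the whole list, and mrpl39 had 0, 0 and 0.757 TPM in mutants, against 9.97, 24.5 and 41.7 TPM in siblings (-4.51 ± 0.85; limma, adjusted p = 0.000248). In gill the list's median was -1.52, with mtif3 and mrps27 lower. The DNA-packaging gene tfam was higher there, with 44.3, 74.2 and 262 TPM in mutant gill, against 0.840 to 39.9 TPM in sibling gill (3.57 ± 1.11, adjusted p = 0.0478). The calls of mrpl39, mrps16 and mrps6 held in every setting tried and those of mrpl51, mrps36 and mrpl54 did not, with 11, 5 and 3 of 14 fits without 1 library past the threshold. Of 13 such fits in gill, tfam passed in 2, mrps27 in 3 and mtif3 in 5 (highest adjusted p = 0.148, 0.144 and 0.0926). Of 17 citrate cycle genes, idh2 fell in mutant epidermis (-3.38 ± 0.81, adjusted p = 0.00395) and so did cs, the citrate synthase gene (-2.42 ± 0.74, adjusted p = 0.0245), though cs failed in 5 of 14 fits without 1 library (mutant epidermis 2, 3 or 4, sibling epidermis 1 or 4; adjusted p up to 0.0686) and after median centring (0.272), with a list median of -1.05 in epidermis and -1.14 in gill, where none passed. Of 11 regulators of mitochondrial content, ppargc1a, a coactivator of mitochondrial genes, rose in mutant epidermis, with 2.03, 14.9 and 231 TPM in mutants, against 0, 0 and 1.92 TPM in siblings (3.87 ± 1.04, adjusted p = 0.0102). The list's median was -0.91 in epidermis and -0.33 in gill, where none passed. The epidermal calls of idh2 and ppargc1a each held in 10 of 12 alternative settings (limma, highest adjusted p = 0.0559 and 0.0654). Both held in all 14 fits without 1 library.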

How the data were processed

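RNA of 30 sorted cells per library was read in 27 libraries, grouped by tissue and genotype as the labels give them. The authors deposited 1 table of TPM values for 32520 genes, with 1 column per library and no pooling. TPM divides by gene length and rescales each library to 1000000, so a value depends on all other genes and keeps no depth; no count model, interval or floor was used. Tools listed in the submitters' processing notes are STAR, featureCounts and DESeq2, with no version, beside the builds GRCz11 and danRer11. Annotation, strand setting and the handling of shared reads are not stated in any source at hand, so paralogues and overlapping genes are uncertain. Coordinates and sequences are left out, as no sequence tables and no genome of GRCz11 were at hand.

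Differences were tested with limma 3.58.1, run under R 4.3.3 with a trended eBayes step after lmFit, on log2(TPM + 1), for the 13465 genes that reached 1 TPM in 5 or more libraries, with 4 group means fitted together (23 residual degrees of freedom). Its p-values are two-sided, Benjamini-Hochberg adjusted over all tested genes, with a threshold of 0.05, in 5 contrasts. Fold changes on this scale understate those of low genes. Sums over subunits are descriptions. The spic test was an exact permutation test in scipy 1.17.1. The procedure was checked on simulated normal log2 values, for the sign and size of changes set in well-expressed genes only. That check does not cover low genes listed at 0 in many libraries. The members, lists and markers were chosen with earlier results of these data known. Named genes were the called members, the 13 mitochondrial genes, the 2 highest nuclear genes per complex, complex II, paralogue sets and called genes of the lists; atp1b1b and other leading ionocyte markers, cox5b2, ndufab1a and uqcrc2a were chosen after their values were seen. Alternatives were pseudocounts of 0.1 and 10, no filter, a stricter filter (5 TPM in 10 libraries), median centring, quantile normalization, no mitochondrial features, robust eBayes, the number of detected genes as covariate, the replicate number as a block, the libraries of a contrast alone, a fit without mutant epidermis 2 and 4 and mutant gill 8, which had the fewest genes at 1 TPM, and leaving out each library in turn. Those for the sums, for paralogue shares, for spic, for the called genes of the lists and for the members called between tissues were added after the data were seen.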

Additional observations from a re-analysis of the deposited data

Results flagged for a closer look

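Within groups of 5 to 8 libraries, 34 of 156 sets of values had 1 end far from the rest by Dixon's test. Chance gives about 1 in 20 for independent sets of normally distributed values. These sets share genes and libraries and hold untransformed TPM, so that rate is no measure of what chance gives here. Mutant gill 3 was the far library in 21 of the 34, in each as the highest. It held 5971 TPM of nuclear complex I subunits, 9656 TPM of nuclear complex IV and 10812 TPM of nuclear complex V. It held 17991 TPM of mitochondrial complex I, 15048 TPM of mt-cyb, the single mitochondrial gene of complex III, 89307 TPM of mitochondrial complex IV and 14016 TPM of mitochondrial complex V. Nuclear members made up 2.84% and mitochondrial members 13.6% of its TPM, and its ionocyte markers summed to 14003 TPM. Single genes flagged there were atp5mc3b at 820 TPM, mt-atp6 at 10817 TPM, mt-atp8 at 3199 TPM, mt-co3 at 27548 TPM, mt-nd2 at 4243 TPM, mt-nd3 at 2417 TPM, mt-nd4 at 3289 TPM, mt-nd4l at 1255 TPM, mt-nd5 at 2950 TPM and mt-nd6 at 2014 TPM.

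The other flags were scattered. Mutant gill 8 was lowest for nuclear complex II, at 3.34 TPM, and for the number of nuclear members at 1 TPM or more, at 67. Sibling epidermis 2 was lowest for mitochondrial complex IV, at 47073 TPM. Mutant epidermis 4 was highest for the mitochondrial over nuclear ratio of complex III, at 39.6, and for ndufaf6, at 29.2 TPM. Mutant epidermis 5 was highest for the ionocyte sum, at 2938 TPM, and for cox6a2, at 104 TPM, and mutant epidermis 1 for cox7a2l, at 174 TPM. Sibling gill 1 was highest for mt-co1, at 21571 TPM, mt-nd4l, at 1068 TPM, and mt-nd5, at 1967 TPM. Mutant gill 2 was highest for ndufaf6, at 33.0 TPM, and sibling gill 3 for ndufb2, at 611 TPM. What sets these libraries apart was not tested.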

How the results depend on the processing

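Of the called members, cox7a2l kept its epidermal call in all 12 alternative settings (highest adjusted p = 0.0135) and in all 14 fits without 1 library. The number of members called in epidermis, 5, became 10 with a pseudocount of 0.1 or the stricter filter, 3 with a pseudocount of 10 or quantile normalization, 2 with no filter and 13 with median centring; without 1 library it ranged from 3 to 10. Without mutant epidermis 7 it was 10, without mutant epidermis 3 or 5 it was 8, and without mutant epidermis 4 or sibling epidermis 3, 6 or 7 it was 3. In gill, 3 became 5 with a pseudocount of 0.1, 6 with quantile normalization and 1 with no filter or with the gill libraries alone; without 1 library it ranged from 0 (sibling gill 3) to 4, and it was 1 without sibling gill 2 or 4. For gill against epidermis in siblings, 1 became 2 with a pseudocount of 0.1 and 0 with the stricter filter or median centring, and ranged from 1 to 2 without 1 library. In mutants, 3 became 5 with a pseudocount of 0.1 and 1 with the libraries of the contrast alone, and ranged from 3 to 5. The interaction gave 0 members in every setting. Among smaller shifts, the nuclear median log2 change in gill was -0.78 with quantile normalization and -0.80 without mutant gill 3. The mitochondrial one in gill was 0.10 with quantile normalization. The median log2 changes moved by more than the SD of the members' median level between libraries with median centring only: to 0.35 (nuclear) and 1.30 (mitochondrial) in epidermis and to 0.29 (nuclear) and 0.81 (mitochondrial) in gill, beside 0.91 and 0.83 for all genes. It turned mt-nd2 in epidermis to a rise of 1.13 (limma, adjusted p = 0.0414). Of these moves, fewer or more genes tested and fewer samples belong to the settings themselves; otherwise the cause was not tested.

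Correlations of deviations between same-numbered libraries were 0.01 to 0.061 over 7 pairs in epidermis and -0.031 to 0.074 over 5 pairs in gill. All 7 mutant epidermal libraries, but 2 in gill, correlated best with their own number, a hint of pairing in epidermis from the data and not the design. What equal numbers share was not tested, and the main fit has no replicate block. With the replicate block, 6 members were called in epidermis, 3 in gill (2 higher, 1 lower), 0 in the interaction, 0 for gill against epidermis in siblings and 6 in mutants.

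TPM keeps no depth, so whether low members such as ndufaf5, ndufaf6 and cox8b were absent or not sampled in a library of 30 cells cannot be told.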

Other observations

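Some duplicated genes, chosen after their values were seen, differed in how their copies shared the transcripts. The complex III core gene uqcrc2a made up 8.77% of the summed mean of uqcrc2a and uqcrc2b in mutant epidermis, against 31.2% in sibling epidermis, and 27.4% in mutant gill, against 31.96% in sibling gill. Without mutant epidermis 1 the first of these shares was 1.44%, and without mutant epidermis 6 it was 14.5%. The acyl carrier gene ndufab1a made up 47.9% of its pair in mutant epidermis, against 76.6% in sibling epidermis, and 56.8% in mutant gill, against 36.1% in sibling gill, so that the sign of the difference was opposite in the 2 tissues, which was not tested. Without mutant epidermis 3 its share in mutant epidermis was 14.9%. In gill, the subunit Vb gene cox5b2 had 1.03, 1.83 and 375 TPM at lowest, median and highest in mutants, against 0 to 0.763 TPM in siblings (limma, adjusted p = 0.0776). Every mutant gill library was above every sibling gill library, and in epidermis the median was 0 TPM in both genotypes.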
